A study of Mus musculus with 189 samples.

Results

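Blastomeres of mouse embryos at the 16-cell stage, the morula, were compared with those at the 32-cell stage, the early blastocyst. The samples were taken by their labels. They were the 26 samples of the dissociated 16-cell embryos mor.4 and mor.5 and 50 samples of the 7 dissociated 32-cell embryos blast.01 and blast.08 to blast.13, together 76 of the 189 samples of the series. The 2 blastomere samples of the 32-cell stage that the study left out were not used. All embryos came from superovulated F1 females (C57BL/6 x DBA/2) mated to C57BL6 males, carried no introduced allele, received no treatment after collection that the sources name and were cultured in KSOMaa medium at low oxygen. Their age in hours is not given in the sources used here. Cells were separated with trypsin after the zona pellucida had been removed and were picked by hand, and how they were chosen is not given in the sources used here. Of the samples, 20 of 26 and 32 of 50 were single cells, and the others were groups of 2 to 7 cells of the same embryo. Another 3 whole embryos of each stage, which share no sample with the dissociated embryos, were used as a second, separate comparison.

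The 16-cell and 32-cell stages span the first separation of cell types in the mouse embryo. Outer cells become trophectoderm, which forms the fetal part of the placenta, under transcription factors such as Cdx2 and Gata3. Inner cells become the inner cell mass (ICM), which depends on factors such as Sox2 and Pou5f1 and then divides into epiblast and primitive endoderm, the latter marked by Gata6, Pdgfra and Sox17. The position of a cell is read by the Hippo pathway, in which active upstream members such as Nf2 keep the coactivator Yap1 out of the nucleus and so away from its DNA-binding partner Tead4.

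Expression was measured by quantitative PCR on microfluidic chips after preamplification, with 156 genes retained of 192 assays. The unit throughout is normalized expression, which is 30 minus the cycle threshold (Ct), minus the mean of that quantity over the control genes Hnrnpr, Ssu72 and Ube2e1 of the same sample. It is a log2 scale on which a difference of 1 is a 2-fold difference. A gene with a Ct of 30 was not detected, and its value is then only the lowest that the sample allowed. That lowest value lay between −16.42 and −12.12 over the 16-cell samples and between −16.19 and −9.78 over the 32-cell samples, so the level of undetected genes differed between stages. The mean Ct of the control genes over embryos was 15.7 (15.6 and 15.8) at the 16-cell stage and 17.7 ± 0.557 (SD, n = 7) at the 32-cell stage, where the lowest embryo had 16.9. This difference of 1.97 cycles had an exact two-sided permutation p of 0.0278, the smallest that 36 splits of 9 embryos into 2 and 7 allow, and its part in the differences of single genes was not tested. Embryos had 136 to 138 detected genes per sample at the 16-cell stage and 127 to 137 at the 32-cell stage, a difference of −3.73 genes that did not pass (exact permutation p = 0.167). Both dissociated 16-cell embryos contributed more than 16 cells, namely 18 in mor.4 and 17 in mor.5. Their source label names both morula and blastocyst, and the 16-cell stage was taken from the label of developmental stage, so the stage of the whole 16-cell group rests on that label.

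A lineage score was compared first. The study chose its genes by their correlation in these same samples, and the score was taken here as the mean of 12 ICM genes minus the mean of 8 trophectoderm genes, so that a positive score means a more ICM-like profile. The mean score was −1.43 in mor.4 and −0.88 in mor.5, with 5 and 4 of 13 samples each above 0. In the 32-cell embryos it ran from 0.78 in blast.09 through a median of 4.63 to 8.10 in blast.11, and every sample of blast.10, blast.11 and blast.12 lay above 0. The samples of these embryos held 6, 4 and 11 cells, and those of blast.01, blast.08, blast.09 and blast.13 held 16, 14, 25 and 11. Those of mor.4 and mor.5 held 18 and 17 cells, and each embryo counted alike. The stages did not overlap, and the difference of 5.55 had an exact two-sided permutation p of 0.0556. The whole embryos went the other way, with −0.40, −0.58 and −1.12 at the 16-cell stage and −2.79, −3.28 and −3.51 at the 32-cell stage. The score is itself an average of expression, so another share of lineages among the picked cells and a change of the same cells with stage cannot be told apart. Beside the genes that passed, the stage difference is also given from a fit of all 76 samples with the score as a covariate, each gene left out of its own score and the embryo as a random block. The p-values of that fit have 74.6 degrees of freedom, which come from samples and not from the 9 embryos. They can therefore be far too small for a stage difference and are given only beside the embryo-level test.

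**Figure D1:**
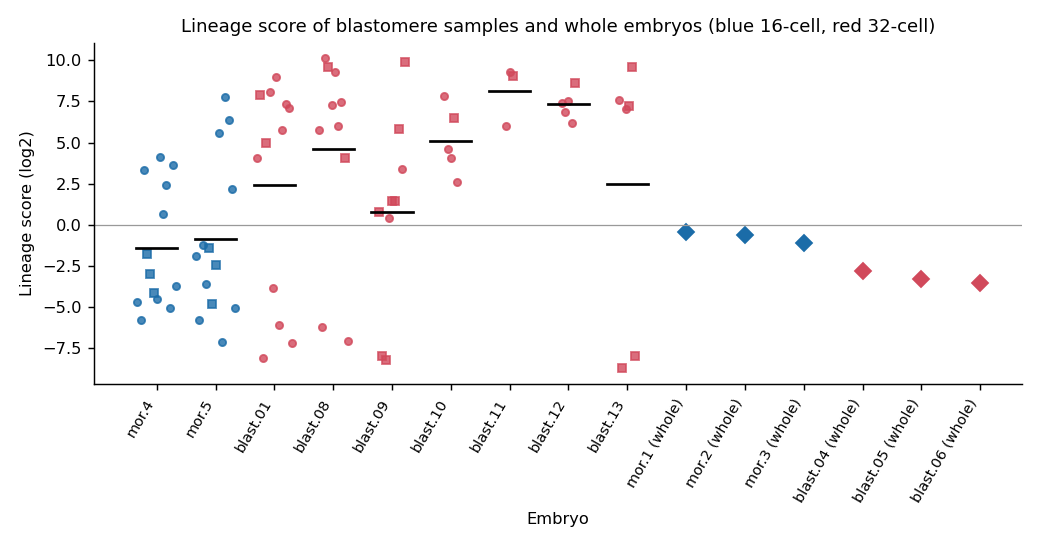
Lineage score (log2, mean of the 12 ICM genes minus mean of the 8 trophectoderm genes) of each blastomere sample by embryo, circles for single cells, squares for groups of cells and lines for the embryo mean, and of each whole embryo (diamonds). All samples of blast.10, blast.11 and blast.12 lay above 0, while all 6 whole embryos lay below 0.

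In the dissociated embryos 17 of the 156 genes (10.9%) differed between the stages at an adjusted p under 0.05, of which 14 were higher (8.97%) and 3 lower (1.92%) at the 32-cell stage. The test was limma on embryo means with all stages in 1 fit, and 37 genes lay under an unadjusted p of 0.05. The genes that rose belonged to the ICM (Sox2, Klf2, Pecam1), the primitive endoderm (Sox17), the Hippo pathway (Yap1, Nf2) and chromatin regulators (Scmh1, Setdb1, Setd5, Setdb2, Mll2, Jmjd1c, Ezh1 and Trim28). The genes that fell were the trophectoderm factors Gata3 and Cdx2 and the maternal factor Dppa3. Embryo means of the stages did not overlap for 15 of the 17, the exceptions being Pecam1 and Setdb2, against 34.6% of all genes. The 17 were called on these same means, so this is no separate support. The median difference over all genes was 0.16.

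The split into higher and lower genes depended on the scaling. It was 14 and 12 with each sample set to its median over the 63 genes detected in every sample of the fit across stages, 3 and 40 with the deposited normalized table and 2 and 50 without normalization, and the median difference over all genes moved to −0.09, −0.99 and −1.81, respectively. Sox2, Sox17, Dppa3, Cdx2 and Gata3 passed with the same sign without normalization. Klf2 (0.66) and Scmh1 (0.87) did not, and the differences of Setd5 (0.042), Setdb1 (0.061) and Yap1 (0.075) were then close to 0. Only 2 embryos stand for the 16-cell stage. Without mor.4 the calls fell to 6 genes and without mor.5 to 10, and Sox2, Scmh1, Yap1, Setd5 and Dppa3 passed in both cases.

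**Figure D2:**
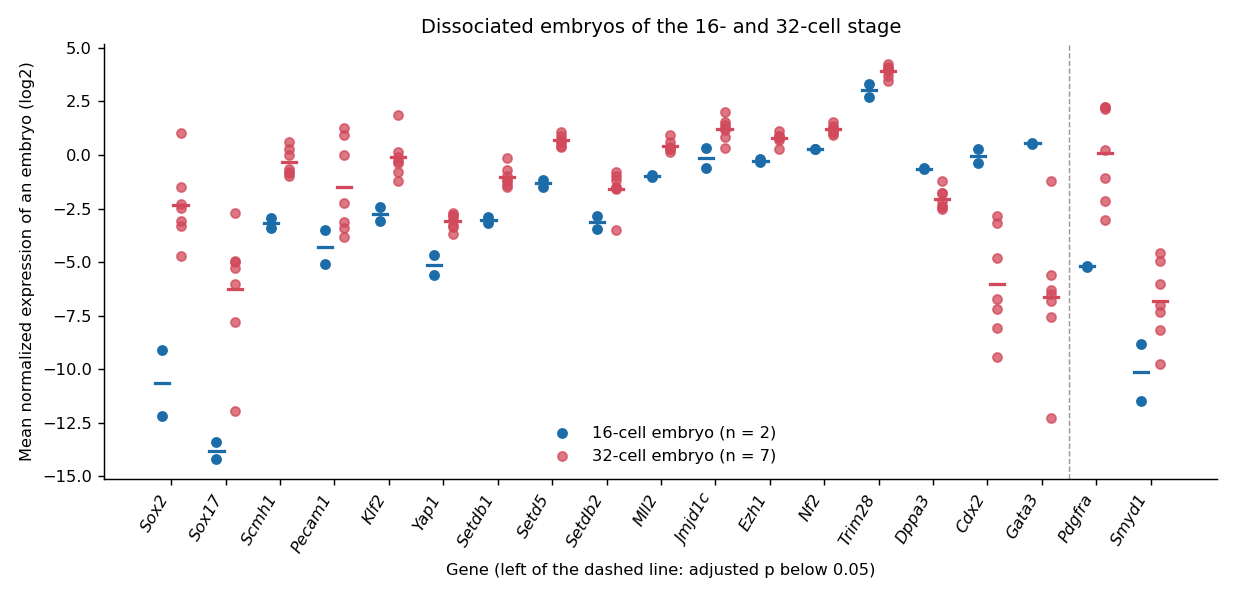
Mean normalized expression (log2) of the samples of each dissociated embryo for the 17 genes that passed and for Pdgfra and Smyd1, with blue points for the 2 embryos of the 16-cell stage, red points for the 7 of the 32-cell stage and lines for stage means. Dppa3, Cdx2 and Gata3 lay lower in all 7 of the 32-cell embryos, and the ranges of Pecam1, Setdb2 and Smyd1 overlapped.

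In means of log2 values over the picked cells, the trophectoderm factors Gata3 and Cdx2 fell by several log2 units. In whole embryos neither fell, as given below. Gata3 averaged 0.55 in mor.4 and 0.53 in mor.5, and in the 32-cell embryos −12.27 in the lowest, −6.50 in the median and −1.19 in the highest, a difference of −7.15 ± 1.66 (SE, adjusted p = 0.00162). Cdx2 averaged −0.37 and 0.28 at the 16-cell stage and −9.45, −6.70 and −2.86 in the lowest, median and highest 32-cell embryo, a difference of −5.99 ± 1.82 (adjusted p = 0.0186). All 32-cell embryos lay below both 16-cell embryos in each gene. In single cells Gata3 was detected in 20 of 20 at the 16-cell stage and in 14 of 32 at the 32-cell stage, and Cdx2 in 20 of 20 and 21 of 32. Where Gata3 was detected, its median over samples was 1.30 in 16-cell and 0.81 in 32-cell embryos, both above the mean of any 32-cell embryo. For Cdx2 the corresponding medians were 0.35 and −2.87. With the samples of an embryo averaged on the linear scale, so that an undetected cell counts as close to 0, the differences were −3.30 for Gata3 (adjusted p = 0.365) and −2.51 for Cdx2 (adjusted p = 0.464) and neither passed. With the score as a covariate they were −3.24 ± 1.18 (adjusted p = 0.0305) and −3.10 ± 1.13 (adjusted p = 0.0305).

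No other gene of the 6 trophectoderm transcription factors passed, and none of the 4 keratin and membrane markers did. Their differences were −2.56 ± 2.42 for Hand1, −1.83 ± 1.40 for Id2, −0.54 ± 0.57 for Tead4 and 4.13 ± 2.26 for Elf5. Those of the markers ran from −2.16 for Tspan8 to 1.28 for Krt19, with −2.09 ± 1.32 for Krt8 and −1.49 ± 1.45 for Dppa1. The median difference was −2.19 over the transcription factors and −1.79 over the markers, against 0.16 over all genes. Cdx2, Gata3, Krt8, Id2, Tead4, Tspan8 and Dppa1 are also genes of the trophectoderm set of the lineage score, and none of the 8 genes in that set rose. In whole embryos the differences of these 8 genes ran from 0.24 to 4.14 with a median of 1.04, and none passed.

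Sox2, a transcription factor of pluripotent cells, showed the largest difference of all genes in means of log2 values, a ranking that rests on undetected cells. It averaged −9.10 in mor.4 and −12.20 in mor.5 and ran from −4.74 in blast.13 through a median of −2.45 to 1.03 in blast.11, a difference of 8.32 ± 1.47 (adjusted p = 4.39e-05). The stages did not overlap. It was detected in 6 of 20 single cells at the 16-cell stage and in 27 of 32 at the 32-cell stage, and its median over samples with a signal was −1.53 and 0.28, respectively. On the linear scale the difference was 3.34 (adjusted p = 0.0486), still past the threshold but smaller than those of Sox17, Kdm5d, Hand1, Xist and Pdgfra. With the score as a covariate it was 4.66 ± 1.39 (adjusted p = 0.00762).

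Klf2, a Krüppel-like factor of naive pluripotency, averaged −2.40 and −3.06 at the 16-cell stage and −1.21, −0.29 and 1.86 in the lowest, median and highest 32-cell embryo, a difference of 2.63 ± 0.80 (adjusted p = 0.0186). Its difference was 2.12 on the linear scale (adjusted p = 0.0566) and 1.01 ± 1.07 with the score as a covariate (adjusted p = 0.549), and passed in neither. Pecam1, an adhesion molecule carried by ICM cells, averaged −3.51 and −5.08 against −3.83, −2.23 and 1.24, a difference of 2.80 ± 0.74 (adjusted p = 0.0081). The 32-cell embryos blast.01, blast.09 and blast.13 had means between −3.83 and −3.15, beside the −3.51 of mor.4, and blast.10, blast.11 and blast.12 lay between 0.01 and 1.24. The 3 latter embryos were those with samples of positive score only, which is partly built in because Pecam1 is a gene of the score. The difference of Pecam1 turned with the score as a covariate to −1.48 ± 1.22 (adjusted p = 0.396).

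Of the 11 pluripotency and epiblast factors Sox2 and Klf2 rose, Dppa3 fell and 8 did not pass, with a median difference of 0.75. Pou5f1, a core factor of pluripotency, averaged 4.57 and 4.73 in the 16-cell embryos and between 4.99 and 5.69 in the 32-cell embryos, a difference of 0.75 ± 0.42 (adjusted p = 0.262). Nanog differed by −0.53 ± 1.40, Esrrb by 0.74 ± 1.95, Klf4 by 1.19 ± 0.57, Zfp42 by 0.15 ± 1.55 and Tbx3 by 0.46 ± 0.44. Larger differences with wide errors were those of Prdm14, a PR-domain protein of pluripotent and germ cells, at 5.22 ± 2.61 and of the growth factor gene Fgf4 at 2.31 ± 2.32. Prdm14 was detected in 7 of 20 and 17 of 32 single cells and Fgf4 in 8 of 20 and 13 of 32.

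Dppa3, a maternal factor that protects methylated DNA in the early embryo, fell as well. It averaged −0.67 and −0.61 at the 16-cell stage and −2.51, −2.16 and −1.23 in the lowest, median and highest 32-cell embryo, a difference of −1.39 ± 0.27 (adjusted p = 0.000169) or 2.62-fold lower. All 76 samples had a signal, and all 32-cell embryos lay below both 16-cell embryos. With the lineage score as a covariate the difference was −1.45 ± 0.25.

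Among the 3 primitive endoderm markers, Sox17 rose, against 8.97% of all genes. It was detected in 1 of 20 single cells at the 16-cell stage and in 13 of 32 at the 32-cell stage. Its mean was −14.21 in mor.4 and −13.40 in mor.5 and ran from −11.95 in blast.01, in which most samples had no signal, through −5.27 to −2.69 in blast.12. The difference was 7.56 ± 2.10 (adjusted p = 0.0106), and on the linear scale 7.11 (adjusted p = 0.0504). Since the 16-cell means lay near the undetected value, they bound the level from above and the difference has no firm size. With the score as a covariate it was 5.21 ± 1.49 (adjusted p = 0.00541, from samples and not from embryos).

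Pdgfra, the receptor that marks early primitive endoderm, averaged −5.16 and −5.22 at the 16-cell stage and −3.05, 0.26 and 2.23 in the lowest, median and highest 32-cell embryo. All 7 lay above both 16-cell embryos, and the difference of 5.28 ± 2.44 did not pass the test over all genes (adjusted p = 0.187). Pdgfra is a gene of the ICM set, and with the score as a covariate the stage difference was 0.39 ± 1.17. Gata6, by contrast, had a signal in 26 of 26 and 49 of 50 samples and differed by −0.82 ± 1.35.

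**Figure D3:**
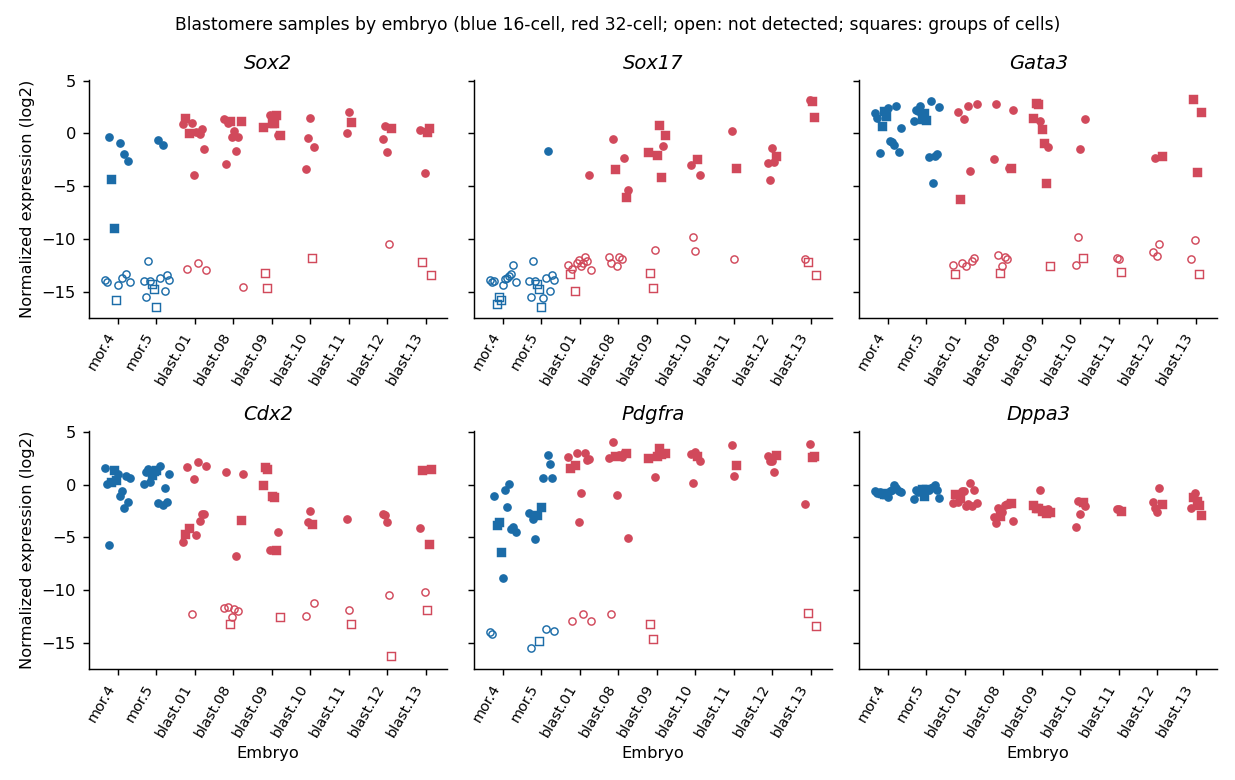
Normalized expression (log2) of each blastomere sample by embryo for 6 genes, with blue for the 16-cell and red for the 32-cell stage, circles for single cells, squares for groups of cells and open symbols for samples without a signal. Gata3 and Cdx2 had a signal in all 26 of the 16-cell samples and in 26 and 34 of 50 of the 32-cell samples, and Dppa3 had one in every sample.

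Of the Polycomb genes, which silence developmental regulators through histone marks, 1 of 9 members of PRC1 and 1 of 7 members and cofactors of PRC2 passed, shares close to the 10.9% of all genes. Scmh1, a PRC1 component, averaged −2.94 and −3.42 at the 16-cell stage and −0.97, −0.66 and 0.59 at the 32-cell stage, a difference of 2.84 ± 0.44 (adjusted p = 5.34e-06) or 7.15-fold. It had a signal in every sample, and the stages did not overlap. Its difference with the score as a covariate was 2.02 ± 0.46 (adjusted p = 0.000844). Ezh1, the methyltransferase of PRC2 that replaces Ezh2 in resting cells, averaged −0.34 and −0.19 against 0.28, 0.83 and 1.14, a difference of 1.05 ± 0.34 (adjusted p = 0.0343), which was −0.10 in the deposited table and −0.92 without normalization. Adding the score as a covariate gave 0.29 ± 0.26, which no longer passed (adjusted p = 0.449). Ezh2 differed by −0.18 ± 0.26 and Eed, the subunit of PRC2 that binds the mark, by −0.57 ± 0.30.

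Of the 5 methyltransferases of histone H3 lysine 9, a mark of silent chromatin, Setdb1 and Setdb2 rose, against 8.97% of all genes. Setdb1 averaged −3.20 and −2.88 at the 16-cell stage and −1.48, −1.16 and −0.14 at the 32-cell stage, a difference of 2.03 ± 0.45 (adjusted p = 0.000899) or 4.08-fold without overlap. Trim28, the corepressor that recruits Setdb1, averaged 2.69 and 3.34 against 3.43 to 4.26, a difference of 0.91 ± 0.31 (adjusted p = 0.0468) that was −0.25 in the deposited table and −1.06 without normalization. With the score as a covariate the differences were 1.99 ± 0.32 for Setdb1 (adjusted p = 1.37e-06) and 0.46 ± 0.18 for Trim28 (adjusted p = 0.0445), with p-values from samples and not from embryos. Setdb2 differed by 1.56 ± 0.44 (adjusted p = 0.0106), and its lowest 32-cell embryo, blast.08 at −3.49, lay just under the −3.47 of mor.4. Without normalization its difference was −0.40, and with the score as a covariate 1.35 ± 0.98 (adjusted p = 0.33).

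Jmjd1c, of the family of lysine 9 demethylases, rose as 1 of 9 such genes, against 8.97% of all genes. It averaged −0.60 in mor.4, 0.32 in mor.5 and 0.34, 1.28 and 2.01 in the lowest, median and highest 32-cell embryo, a difference of 1.36 ± 0.41 (adjusted p = 0.0186) or 2.58-fold. The gap between mor.5 and the lowest 32-cell embryo was narrow, and without normalization the difference was −0.60. With the lineage score as a covariate it was 0.88 ± 0.32 (adjusted p = 0.0312).

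Setd5, a SET-domain protein and 1 of 3 other SETD genes, was at −1.14 and −1.51 in the 16-cell embryos and 0.37, 0.67 and 1.09 in the lowest, median and highest 32-cell embryo. Its difference was 2.01 ± 0.36 (adjusted p = 4.39e-05) or 4.03-fold. Mll2, a methyltransferase of histone H3 lysine 4, a mark of active promoters, averaged −1.01 and −0.94 against 0.15, 0.34 and 0.93, a difference of 1.40 ± 0.38 (adjusted p = 0.00974) that was −0.57 without normalization. With the score as a covariate the differences were 1.83 ± 0.20 for Setd5 (adjusted p = 1.17e-11) and 1.10 ± 0.20 for Mll2 (adjusted p = 1.64e-05). These 2 p-values rest on samples and not on embryos and can be far too small. Of the 9 genes of lysine 4 methyltransferase complexes 1 passed, against 10.9% of all genes. Mll1 of the same group differed by 4.15 ± 1.91 (adjusted p = 0.187) with all 7 of the 32-cell embryos above both 16-cell embryos, and Phf2, a JmjC demethylase, by 4.96 ± 1.74 (adjusted p = 0.0548). The standard error of Mll1 rests on all stages, while its means were −2.61 and −4.98 at the 16-cell and −0.38 to 0.87 at the 32-cell stage.

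None of the 5 SMYD genes, which encode SET and MYND domain methyltransferases, passed. Smyd1 averaged −11.46 in mor.4 and −8.80 in mor.5 and −9.75, −6.99 and −4.57 in the lowest, median and highest 32-cell embryo, so the stages overlapped, and the difference was 3.31 ± 1.23 (adjusted p = 0.0694). It had a signal in 9 of 20 and 17 of 32 single cells, and its median over samples with a signal was −5.50 and −3.0. Smyd4 differed by 3.13 ± 1.98, Smyd5 by 0.91 ± 0.64, Smyd3 by 0.51 ± 0.89 and Smyd2 by 0.016 ± 1.52. The median of the 5 differences was 0.91.

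None of the 6 H3 lysine 36 methyltransferases, 7 lysine 4 demethylases, 4 lysine 36 and 27 demethylases, 7 PRDM genes, 3 HP1 genes, 6 genes of DNA methylation, 8 genes of histone H3.3 and its chaperones or 6 genes of acetylation passed, nor did any of 3 H4 lysine 20 methyltransferases, 4 other JmjC proteins, 3 other Polycomb and MBT genes or 3 oocyte and germline transcripts. Their median differences ran from −0.55 in the acetylation genes to 0.57 in the lysine 36 methyltransferases, against 0.16 over all genes. Among the genes of DNA methylation, Tet1 had the highest difference at 2.54. It averaged −3.81 and −3.54 in the 16-cell embryos and between −1.70 and −0.48 in the 32-cell embryos. The stages did not overlap, as for 22.4% of all genes in this direction. Fgf4, Fgfr2, Fgfr3 and Mapk3 of FGF signalling did not pass either. Fgfr3, an FGF receptor, was at −3.01 and −2.90 in the 16-cell embryos and at most −6.29 in the 32-cell embryos, a difference of −5.59 ± 2.43 (adjusted p = 0.161), and had a signal in 19 of 20 and 12 of 32 single cells. Fgfr2 differed by −1.37 ± 1.14 and Mapk3 by 0.25 ± 0.53. The zona pellucida gene ZP3, an oocyte transcript, was at −5.09 and −5.24 against at most −7.49, with a difference of −4.09 ± 1.96 (adjusted p = 0.192).

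Sex-linked genes separated the embryos. Kdm5d, a lysine 4 demethylase on the Y chromosome, had no signal in any of the 26 samples of the 16-cell stage. It averaged −0.15 in blast.10 and −0.43 in blast.13 and at most −12.27 in the other 5 of the 32-cell embryos. Xist, the RNA of the inactive X chromosome, averaged −11.28 and −12.14 in those same embryos and between 4.01 and 5.27 in the other 5, beside 2.79 and 2.86 in mor.4 and mor.5. Neither gene passed (5.23 ± 3.32 for Kdm5d and −2.83 ± 4.34 for Xist), nor did any other of the 8 X- and Y-linked genes.

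Of the 4 genes of the Hippo pathway, Yap1 and Nf2 rose, against 8.97% of all genes. Yap1 averaged −4.67 in mor.4 and −5.62 in mor.5 and −3.67, −3.02 and −2.72 in the lowest, median and highest 32-cell embryo, a difference of 2.04 ± 0.38 (adjusted p = 6.52e-05) or 4.12-fold. Nf2 averaged 0.26 and 0.30 against 0.91, 1.18 and 1.56, a difference of 0.93 ± 0.28 (adjusted p = 0.0186) or 1.90-fold. Neither gene overlapped between stages. The difference of Nf2 was −0.23 in the deposited table and −1.04 without normalization. The differences with the score as a covariate were 1.73 ± 0.44 for Yap1 (adjusted p = 0.00173) and 0.73 ± 0.20 for Nf2 (adjusted p = 0.00388), with p-values from samples and not from embryos. The kinase gene Lats2 differed by −0.34 ± 1.11 and Tead4 by −0.54 ± 0.57.

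With these control genes Yap1 and Nf2 both rose in this comparison and in that of whole embryos, though not under every scaling. In the deposited table their differences in dissociated embryos had opposite signs (0.89 and −0.23). The 250 bases before their starts are shown, taken from the RefSeq promoters of GRCm38.p6 and written 5′ to 3′ on the strand of the gene. Capitals mark the letters GGAATG or CATTCC, the core motif of Tead factors on either strand. Yap1 is at chr9:8004597-8004846 on the minus strand and Nf2 at chr11:4849545-4849794 on the minus strand, the first of 2 promoters in the table.
Yap1: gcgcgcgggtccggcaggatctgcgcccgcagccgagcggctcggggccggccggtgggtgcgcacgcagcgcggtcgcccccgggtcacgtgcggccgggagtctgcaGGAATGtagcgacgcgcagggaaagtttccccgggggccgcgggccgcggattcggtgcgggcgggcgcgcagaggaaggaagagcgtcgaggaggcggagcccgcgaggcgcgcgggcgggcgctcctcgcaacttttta
Nf2: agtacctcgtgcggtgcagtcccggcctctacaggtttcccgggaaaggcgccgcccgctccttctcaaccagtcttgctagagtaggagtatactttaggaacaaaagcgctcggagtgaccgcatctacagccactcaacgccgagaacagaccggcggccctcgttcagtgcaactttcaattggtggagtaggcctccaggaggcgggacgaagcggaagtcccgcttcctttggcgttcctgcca
The motif occurred once before Yap1 and was not found in this window of Nf2. It was present in 12.6% of the 32851 promoter windows of this length in the table and in 6.04% of 149 windows of the assayed genes, of which 110 of 156 were matched by symbol.

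Some of these genes are part of the lineage score. Ezh1, Klf2, Pecam1, Scmh1, Sox2 and Trim28, 6 of the 14 genes that rose, belong to its ICM set and Gata3 and Cdx2 to its trophectoderm set, so their slopes on the score follow from how the sets were chosen and are no result. Of the other 8 genes that rose, 5 had a positive slope at an adjusted p under 0.05, against 22.8% of the 136 genes outside the score. They were Sox17 (0.37 per unit of score), Jmjd1c (0.078), Mll2 (0.052), Nf2 (0.03) and Setd5 (0.029). The study chose the score genes by correlation in these same samples. It placed Jmjd1c, Mll2, Setd5, Setdb1 and Setdb2 among the genes that correlated with core ICM genes there. The slopes of genes outside the score are thus not independent of that choice, and their p-values rest on samples and not on embryos. Setdb1, Setdb2, Yap1 and Dppa3 had slopes of 0.0022, 0.022, 0.053 and 0.02, none of which passed.

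In the fit of samples with the score, 13 of the 17 genes still passed, all but Ezh1, Klf2, Pecam1 and Setdb2. Another 37 genes passed as well, 50 of 156 (32.1%) in all. The counts of 17 and 50 differ in the unit of the fit as well as in the score. Without the score, the fit of samples also called more genes than that of embryo means, as given below. The differences of Setdb1, Setdb2, Setd5, Yap1, Mll2, Nf2 and Dppa3 moved by less than their standard errors in the fit of embryo means. The fit with the score treats samples of 1 embryo as correlated by 0.0947 and still rests on 2 embryos of the 16-cell stage.

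An ICM group and a trophectoderm group isolated from 32-cell embryos, 1 sample each and without a test, were set beside these results. By their labels they came from different embryos. Their lineage scores were −0.48 and −4.24. The ICM sample lay above the trophectoderm sample in 11 of the 14 genes that rose, all but Mll2, Nf2 and Yap1, and in 66.7% of all genes. It was higher by 5.83 for Sox2 and 4.65 for Pecam1, while the difference was −1.20 for Gata3 and −1.41 for Cdx2. For Sox17 the difference was 12.14, but the trophectoderm sample had no signal (−16.07), so it has no firm size. The ICM sample itself held Gata3 at 1.53 and Cdx2 at 0.43.

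In whole embryos 42 of 156 genes (26.9%) passed, 8 higher (5.13%) and 34 lower (21.8%) at the 32-cell stage, and 61 lay under an unadjusted p of 0.05. The median difference over all genes was −0.56. In bulk samples of this kind fewer cells of a type and less RNA per cell cannot be told apart. Control genes had a mean Ct of 10.7 in the 16-cell and 12.6 in the 32-cell whole embryos. Among the control genes themselves Ssu72 rose by 1.02 ± 0.25 (adjusted p = 0.00154) and Hnrnpr fell, with a difference of −0.97 ± 0.24 (adjusted p = 0.00147). With each sample set to its median the split was 19 and 19, without Ssu72 as a control 15 and 15, and without normalization 2 and 81. In the dissociated embryos the corresponding differences were 0.68 ± 0.25 for Ssu72 and −0.34 ± 0.24 for Hnrnpr.

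Sox17, Yap1 and Nf2 rose and Dppa3 fell in both kinds of sample, which is 23.5% of the 17 genes called in dissociated embryos and 9.52% of the 42 called in whole embryos. Yap1 was at −4.07, −4.26 and −4.15 in the 16-cell and −2.73, −2.81 and −2.73 in the 32-cell whole embryos, a difference of 1.40 ± 0.37 (adjusted p = 0.00289). Nf2 was at 0.14, 7.9e-05 and −0.16 against 1.03, 0.54 and 0.79, a difference of 0.79 ± 0.28 (adjusted p = 0.0263). Neither gene overlapped, as was the case for 66.0% of all genes (23.7% with the 32-cell stage higher), and without normalization the differences were −0.50 and −1.11.

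Dppa3 was at −0.56, −1.0 and −0.46 in the 16-cell and −2.17, −2.90 and −2.89 in the 32-cell whole embryos, a difference of −1.98 ± 0.28 (adjusted p = 1.44e-07). Sox17 was at −18.16 (not detected), −5.96 and −10.62 against −2.78, −4.45 and −3.10, a difference of 8.14 ± 2.28 (adjusted p = 0.00456). Neither overlapped between stages, and 42.3% of all genes were lower in this way. Among the genes that passed in dissociated embryos 9 of 17 had the same sign in whole embryos, against 59.6% of all genes.

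**Figure D4:**
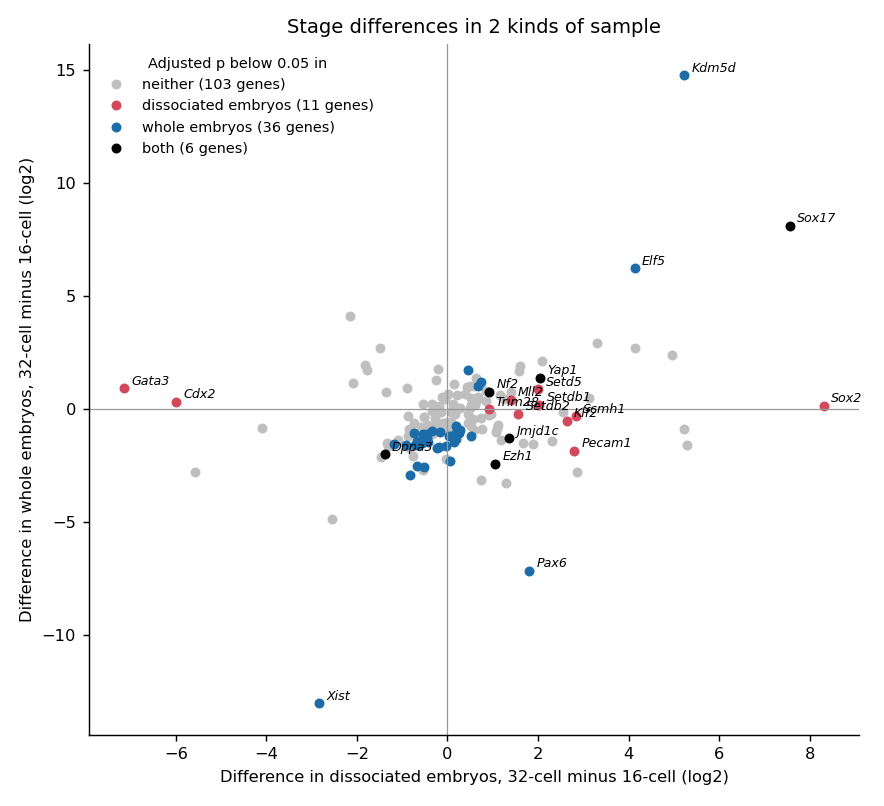
Difference between the 32-cell and the 16-cell stage (log2) of each of the 156 genes in dissociated embryos (horizontal axis) and in whole embryos (vertical axis), coloured by where the adjusted p was under 0.05. Sox17, Yap1 and Nf2 lie in the upper right, Dppa3 in the lower left, and Jmjd1c and Ezh1 passed with opposite signs in this normalization.

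Jmjd1c and Ezh1 passed in both with opposite signs. Jmjd1c was at −0.24, −0.30 and 0.30 in the 16-cell and −1.39, −1.28 and −1.41 in the 32-cell whole embryos, a difference of −1.28 ± 0.40 (adjusted p = 0.0121). Ezh1 was at −0.029, −0.14 and −0.27 against −2.17, −2.65 and −2.86, a difference of −2.42 ± 0.34 (adjusted p = 1.44e-07). Both were lower in every 32-cell whole embryo and higher in every dissociated 32-cell embryo. The opposite signs depended on the scaling. Without normalization both genes were lower at the 32-cell stage in both kinds of sample. The differences of Jmjd1c were then −0.60 in dissociated and −3.18 in whole embryos, and those of Ezh1 −0.92 and −4.32. With each sample set to its median, Jmjd1c did not pass in whole embryos (−0.82, adjusted p = 0.0638 by limma). Pecam1 and Sox2 differed by −1.84 ± 0.74 and 0.16 ± 1.45 in whole embryos, and Gata3 and Cdx2 by 0.93 ± 1.63 and 0.34 ± 1.78, none past the threshold.

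A test of the difference itself, that of whole minus that of dissociated embryos, passed for 22 genes (14.1%), 2 of them positive and 20 negative. It was −3.47 ± 0.48 for Ezh1 (adjusted p = 2.21e-07), −3.14 ± 0.61 for Scmh1 (adjusted p = 0.000303), −2.64 ± 0.56 for Jmjd1c (adjusted p = 0.000887) and −8.16 ± 2.04 for Sox2 (adjusted p = 0.00322). The positive values were 8.08 ± 2.28 for Gata3 (adjusted p = 0.0127) and 3.55 ± 1.21 for Tada3, a subunit of acetyltransferase complexes. In a whole embryo the transcripts of all cells are pooled before log2 is taken, whereas the mean of log2 values falls with each undetected cell. With dissociated samples averaged on the linear scale, Ezh1 (−3.67), Scmh1 (−2.84), Jmjd1c (−2.63) and Pecam1 (−4.37) still passed, and Sox2 (−3.18, adjusted p = 0.181) and Gata3 (4.23, adjusted p = 0.311) did not.

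**Figure D5:**
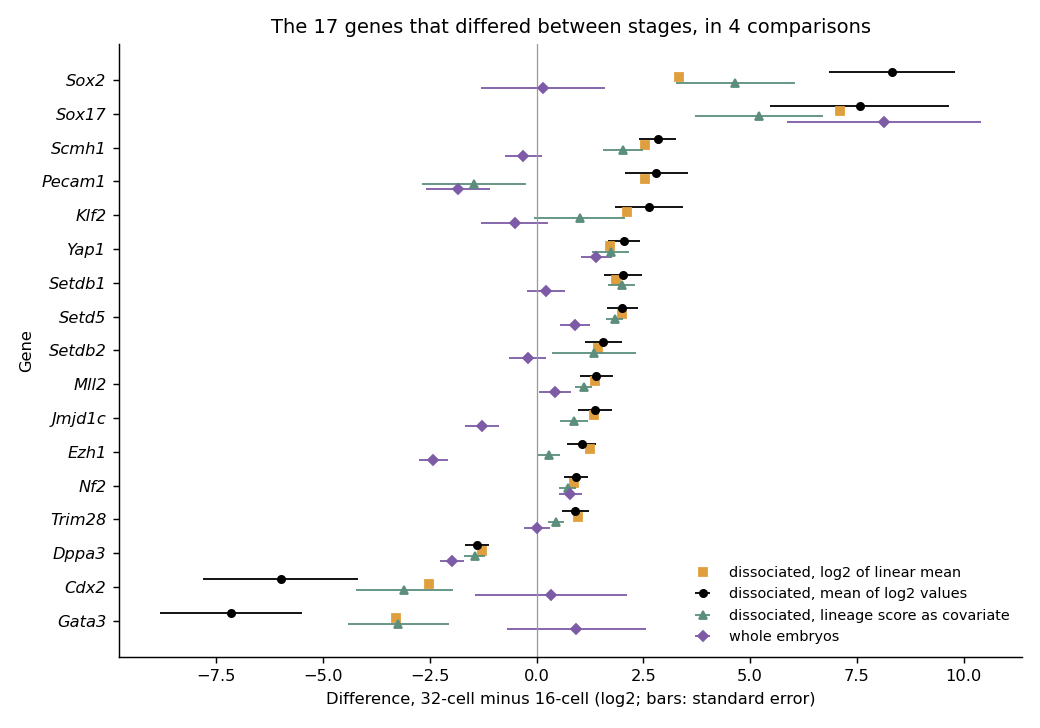
Difference between the 32-cell and the 16-cell stage (log2) of the 17 genes that passed in dissociated embryos, from the mean of log2 values (black), the log2 of the linear mean (orange), the fit with the lineage score as a covariate (green) and whole embryos (purple), with bars for the standard error except on the linear means. The 4 values of Yap1, Nf2, Sox17 and Dppa3 lie on the same side of 0, and those of Ezh1 and Jmjd1c do not.

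Of the 34 genes that fell in whole embryos, 3 also passed in the dissociated ones, namely Dppa3, Ezh1 and Jmjd1c. By list the genes that fell were 3 of 7 PRC2 genes, 4 of 9 lysine 9 demethylases, 3 of 7 lysine 4 demethylases, 3 of 4 lysine 36 and 27 demethylases, 4 of 8 genes of histone H3.3 and its chaperones and 2 of 3 HP1 genes, against 21.8% of all genes. These counts depended on the scaling. With each sample set to its median, Jmjd1c, Kdm3a, Kdm4a, Kdm1a, Kdm6a, Kdm6b, H3f3a, DEK, Cbx1 and Cbx5 of these lists no longer passed. Ezh1, Ezh2, Eed, Jhdm1d, Kdm5b, Kdm5c, Kdm2b, ASF1B and Atrx still did. Kdm5c, Kdm6a and Atrx are X-linked. None of 9 PRC1 genes, 5 lysine 9, 6 lysine 36 and 3 H4 lysine 20 methyltransferases, 5 SMYD genes or 7 PRDM genes fell, and 1 of 9 genes of lysine 4 methyltransferase complexes did. Ezh2 was at 2.55, 2.59 and 2.24 against 1.04, 0.79 and 0.61, a difference of −1.65 ± 0.26, and Eed differed by −1.47 ± 0.30. Hdac1, a histone deacetylase, differed by −2.50 ± 0.44, Kdm5b, a lysine 4 demethylase, by −2.55 ± 0.49, Carm1, an arginine methyltransferase, by −1.29 ± 0.26 and Cdk1, the kinase that drives mitosis, by −2.91 ± 0.35. All 4 lay below the median of −0.56 over all genes. Beside Sox17, Yap1, Nf2 and the sex-linked Kdm5d, the genes that rose were the trophectoderm factor Elf5 (6.25 ± 2.41, with no signal in 1 of the 3 whole 16-cell embryos), the lysine 36 methyltransferase Whsc1 (1.74 ± 0.45), the PRC1 gene Phc2 (1.23 ± 0.39) and the control Ssu72. Pax6, a neural transcription factor, differed by −7.13 ± 1.49, with no signal in 2 of the 3 whole 32-cell embryos.

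Sex-linked genes moved with the stage in whole embryos. Kdm5d had no signal in any of the 3 whole 16-cell embryos and was at −5.27, −4.32 and −3.83 in the 32-cell ones, while Xist was at 2.74, 2.98 and 1.84 against −6.30, −17.54 and −7.62. The X-linked genes Kdm5c (−1.60 ± 0.34), Kdm6a (−1.55 ± 0.41) and Atrx (−1.57 ± 0.36) also passed. In these 6 embryos stage cannot be told apart from the presence of Kdm5d.

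The spread between single cells of an embryo differed for 1 of 153 genes (0.654%), in a comparison of 2 embryos of the 16-cell stage with the 4 of the 32-cell stage that gave at least 4 single cells. Mll3, a lysine 4 methyltransferase of enhancers, had an SD over single cells of 0.539 in mor.4 and 0.714 in mor.5 and of 4.85, 4.14, 4.31 and 5.14 in blast.01, blast.08, blast.10 and blast.12. The difference of log2(SD + 0.25) was 2.47 ± 0.275 (SE, adjusted p = 0.00727). Mll3 had a signal in 20 of 20 single cells at the 16-cell stage and in 20 of 32 at the 32-cell stage, and its median over samples with a signal was −4.55 and −3.05. The call by limma was lost without mor.4 and without mor.5 (adjusted p = 0.0762 and 0.0834). Of the other genes, 12 lay under an unadjusted p of 0.05.

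The next largest increases in spread were those of Fgfr2 (1.56), Gata3 (1.38), Pcgf1 (1.37) and Kdm5a (1.35), and the largest decreases those of Mll1 (−2.16), Xist (−1.69), Rbp2 (−1.51), Hand1 (−1.42) and Cbx7 (−1.39), none of which passed. For Gata3 the SD was 1.74 and 2.74 at the 16-cell stage and between 4.41 and 7.22 at the 32-cell stage. For Mll1 it was 1.68 and 4.58 against 0.294 to 0.606, with 1 of 20 single cells at the 16-cell stage lacking a signal.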

How the data were processed

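Members, gene lists and tests were chosen with earlier results of these data known. Per the labels and the study's methods, the authors preamplified RNA of single cells, groups of cells or whole embryos with gene-specific primers and ran the assays on Fluidigm chips. The deposited score used here is the Ct, with 30 for no signal, and 156 of 192 assays that passed the authors' quality call were kept. The authors' deposited normalized table, on the log2 scale, equals 30 − Ct relative to Gapdh, Hspa8 and Lmnb1 to within 1.03e-08 and served as an alternative, since the methods name Hnrnpr, Ssu72 and Ube2e1. These 3 control genes were used here on the Ct scores, and each sample's control mean was subtracted.

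Normalized values were averaged per embryo, because cells of 1 embryo are not replicates. limma 3.58.1 (R 4.3.3) was fitted to the 58 embryo means of all stages, or to 64 units with whole embryos, with Benjamini-Hochberg adjustment over 156 genes and a threshold of 0.05. Spread was tested with limma on log2(SD + 0.25) over the single cells of embryos with at least 4. The covariate fit used the samples with the embryo as a random block (duplicateCorrelation). Lineage score, control Ct and detected genes were tested with exact permutation over embryos. Undetected scores made up 12.3% of the values of 16-cell blastomeres and 14.5% of those of 32-cell blastomeres. Ct values carry no read depth, and preamplification of single cells limits the precision of low levels. On simulated data with the dissociated design of 156 genes, shifts of 1, 2 and 4 log2 units were recovered for 17.5%, 57.6% and 77.6% of the shifted genes. Genes were named if they passed in the dissociated embryos, if they were members of the lists described or were the 5 highest and lowest of the others. The alternatives were other control genes, other scalings, a floor on low values, a filter on detection, single cells only, medians, the 9 embryos alone and the removal of each embryo. Averaging on the linear scale and Ube2e1 as the only control gene were added after the data had been seen.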

Additional observations from a re-analysis of the deposited data

Results flagged for a closer look

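Of 22 results tested for an embryo far from the others among the 7 of the 32-cell stage, 1 stood out, and chance gives about 1 in 20. Setdb2 averaged −3.49 in blast.08, whose gap to the next embryo was 0.707 of the range, above the critical value of 0.568.

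The stage difference of 22 genes was not the same in whole as in dissociated embryos by limma's test of the difference between them. Whole minus dissociated, it was positive for Gata3 (8.08) and Tada3 (3.55). Among pluripotency and ICM genes it was −8.16 for Sox2, −4.64 for Pecam1, −3.14 for Klf2 and −2.55 for Klf4. Among methyltransferase and Polycomb genes it was −3.47 for Ezh1, −1.47 for Ezh2, −3.14 for Scmh1, −1.81 for Setdb1, −1.77 for Setdb2 and −1.48 for Carm1. Among demethylases it was −2.64 for Jmjd1c, −1.64 for Kdm2a, −2.04 for Kdm5b and −1.57 for Kdm5c. The others were Hdac1 (−1.82), the histone gene H3f3a (−1.68), the chromatin protein DEK (−1.31), the testis bromodomain gene Brdt (−2.36), Cdk1 (−2.08) and Pax6 (−8.94).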

How the results depend on the processing

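In dissociated embryos the counts of higher and lower genes, 14 and 3 as reported, were 9 and 4 without Hnrnpr as a control, 24 and 3 without Ssu72, 10 and 5 without Ube2e1, 14 and 12 with each sample set to its median, 3 and 40 in the deposited table, 2 and 50 without normalization, 20 and 5 with values under −10 set to −10, 29 and 17 with every sample and the embryo as a random block, 32 and 18 with the lineage score added to that fit, and 22 and 21 with whole embryos added. Without 1 embryo at a time they ran from 5 to 16 and from 1 to 4, the lowest without mor.4 (5 and 1) and 7 and 3 without mor.5. Sox2 kept its direction and passed in all 26 alternatives. Differences turned negative without normalization for Ezh1 (−0.92), Jmjd1c (−0.60), Mll2 (−0.57), Nf2 (−1.04), Setdb2 (−0.40) and Trim28 (−1.06), in the deposited table for Ezh1 (−0.10), Nf2 (−0.23) and Trim28 (−0.25), with whole embryos added for Ezh1 (−0.025) and with the lineage score for Pecam1 (−1.48). A change of scaling moves the differences of all genes by the same amount, which was the control Ct difference of 1.97 without normalization. The cause of the other changes was not tested.

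In whole embryos the counts of 8 and 34 were 3 and 47 without Hnrnpr, 15 and 15 without Ssu72, 4 and 17 with Ube2e1 alone, 19 and 19 with each sample set to its median, 2 and 81 without normalization, 4 and 37 in the deposited table and 15 and 42 with the floor, and ran from 5 to 7 and from 26 to 35 without 1 embryo at a time. Nf2 (−1.11) and Yap1 (−0.50) turned negative without normalization. For whole minus dissociated embryos the counts of 2 and 20 were 1 and 10 without Ssu72, 2 and 9 without Ube2e1, 1 and 18 with Ube2e1 alone, 3 and 6 with the median, 2 and 4 in the deposited table, 5 and 23 with the floor, 0 and 16 with linear means, and 0 and 0 by limma without normalization, where 13 genes lay under an unadjusted p of 0.05. They ran from 1 to 2 and from 10 to 18 without 1 whole embryo at a time.

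The spread of Mll3 was the single call, against 0 by limma without mor.4 or mor.5 (8 and 9 genes under an unadjusted p of 0.05) and 0 among the 75 genes detected in every single cell (4 genes), of which Mll3 is not one. The difference in lineage score was 5.52 with single cells only (exact permutation p = 0.0278) and ran from 4.94 to 6.16 without 1 embryo at a time, passing without blast.09 (6.16) and without blast.11 (4.94, both exact permutation p = 0.0357). The difference in control Ct ran from 1.79 to 2.09 and could not pass without mor.4 (2.07) or mor.5 (1.86), where the smallest exact p is 0.125. No paired analysis was possible because the embryo numbers of the labels, 4 and 5 at the 16-cell stage and 1 and 8 to 13 at the 32-cell stage, are shared by no pair. With 2 embryos of the 16-cell stage, differences under 2 log2 units were often below what the test can recover.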
